A study of Mus musculus with 12 samples.

Results

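The 10 genes described here encode the integrin chains best known on T cells: Itgae, Itgb7, Itga4, Itgb1, Itga6, Itgal, Itgb2, Itgav, Itgb8 and Itgb3. They were taken by gene symbol from a table of 24502 genes, each of the 10 had a row, and all 10 passed the filter on low counts that left 14827 genes. RNA was measured in sorted regulatory T cells (Treg cells, which restrain immune responses and depend on the transcription factor Foxp3) from mice 11 weeks old. The 4 groups, with 3 libraries each, were WT cells and Foxp3CreGpx4fl/fl cells (called Gpx4-deficient here), either unstimulated or stimulated through CD3 and CD28 for 4 h with antibodies bound to the plate (5 µg/ml). In the second genotype, Cre recombinase driven by Foxp3 removes loxP-flanked Gpx4, the gene of a selenoenzyme that reduces lipid hydroperoxides in membranes. The labels name the control genotype only as WT, so the presence of Cre and the loss of Gpx4 cannot be told apart. They give no culture time for unstimulated cells, so time in culture and stimulation cannot be told apart either.

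Integrins are adhesion receptors made of an alpha and a beta chain, and most are held inactive on resting lymphocytes until signals from the T cell receptor or chemokine receptors switch them on from inside the cell. The alpha E chain (Itgae, CD103) pairs with beta 7 (Itgb7) and binds E-cadherin on epithelium, while alpha 4 (Itga4) pairs with beta 7 to bind MAdCAM-1 in gut vessels or with beta 1 (Itgb1) to bind VCAM-1 and fibronectin. Alpha L (Itgal) and beta 2 (Itgb2) form LFA-1, the receptor for ICAM-1, and alpha V (Itgav) with beta 8 (Itgb8) binds the latent form of TGF-beta and frees the active cytokine.

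Whole libraries are described first, since the stimulated Gpx4-deficient ones stood apart. Library totals ran from 24629230 to 31879267 counts, and the lowest count of any of the 10 genes in any library was 355 (Itgb8). Gpx4 stood at 153.7 ± 16.1 CPM (counts scaled to library size; SD, n = 3) in unstimulated WT and 8.20 ± 3.77 CPM in unstimulated Gpx4-deficient cells, and at 86.5 ± 19.4 and 7.03 ± 3.22 CPM after stimulation, in the direction of the labels. All 13 Treg and T cell identity markers were detected in every group. In the stimulated Gpx4-deficient libraries, mitochondrially encoded transcripts took 2.84% to 3.72% of counts. Unstimulated Gpx4-deficient libraries had 1.72% to 1.94%, above the 1.214% to 1.385% of unstimulated and 1.18% to 1.37% of stimulated WT libraries. In the stimulated Gpx4-deficient libraries, 107 to 190 genes were at 0 although they averaged at least 5 CPM elsewhere (9 to 69 in the other groups). Replicate 3 of that group had the highest value of both measures. The identifiers of WT and of Gpx4-deficient libraries form separate runs of numbers, so a batch tied to them and the genotype cannot be told apart. Nothing in the labels says that replicates came from separate mice, so p-values cover the library-to-library spread only, and that spread may be technical. In these bulk samples, fewer cells of a type and less RNA per cell cannot be told apart.

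Stimulation split the integrin chains into a pair that rose, 6 that fell and 2 that did not pass the test. In WT cells, edgeR's quasi-likelihood test called Itgav and Itgb8 higher and Itgb7, Itgae, Itga4, Itgb1, Itgal and Itgb2 lower, at a Benjamini-Hochberg adjusted p under 0.05. Across all genes tested, 6.12% were called higher and 5.41% lower in that comparison. In Gpx4-deficient cells the same test again called 2 of the 10 higher and 6 lower, where 7.45% of all genes were called higher and 7.83% lower. The median log2 fold change of the 10 genes with stimulation was -1.30 in WT and -0.87 in Gpx4-deficient cells, against medians of -0.03 and -0.02 over all genes tested. The 3 stimulated and 3 unstimulated WT libraries did not overlap for any of the 10 genes (42.0% of all genes did not overlap), with 3 genes higher and 7 lower. In Gpx4-deficient cells 8 of the 10 did not overlap (29.8% of all genes), and the exceptions were Itgb3 and Itga6.

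**Figure D1:**
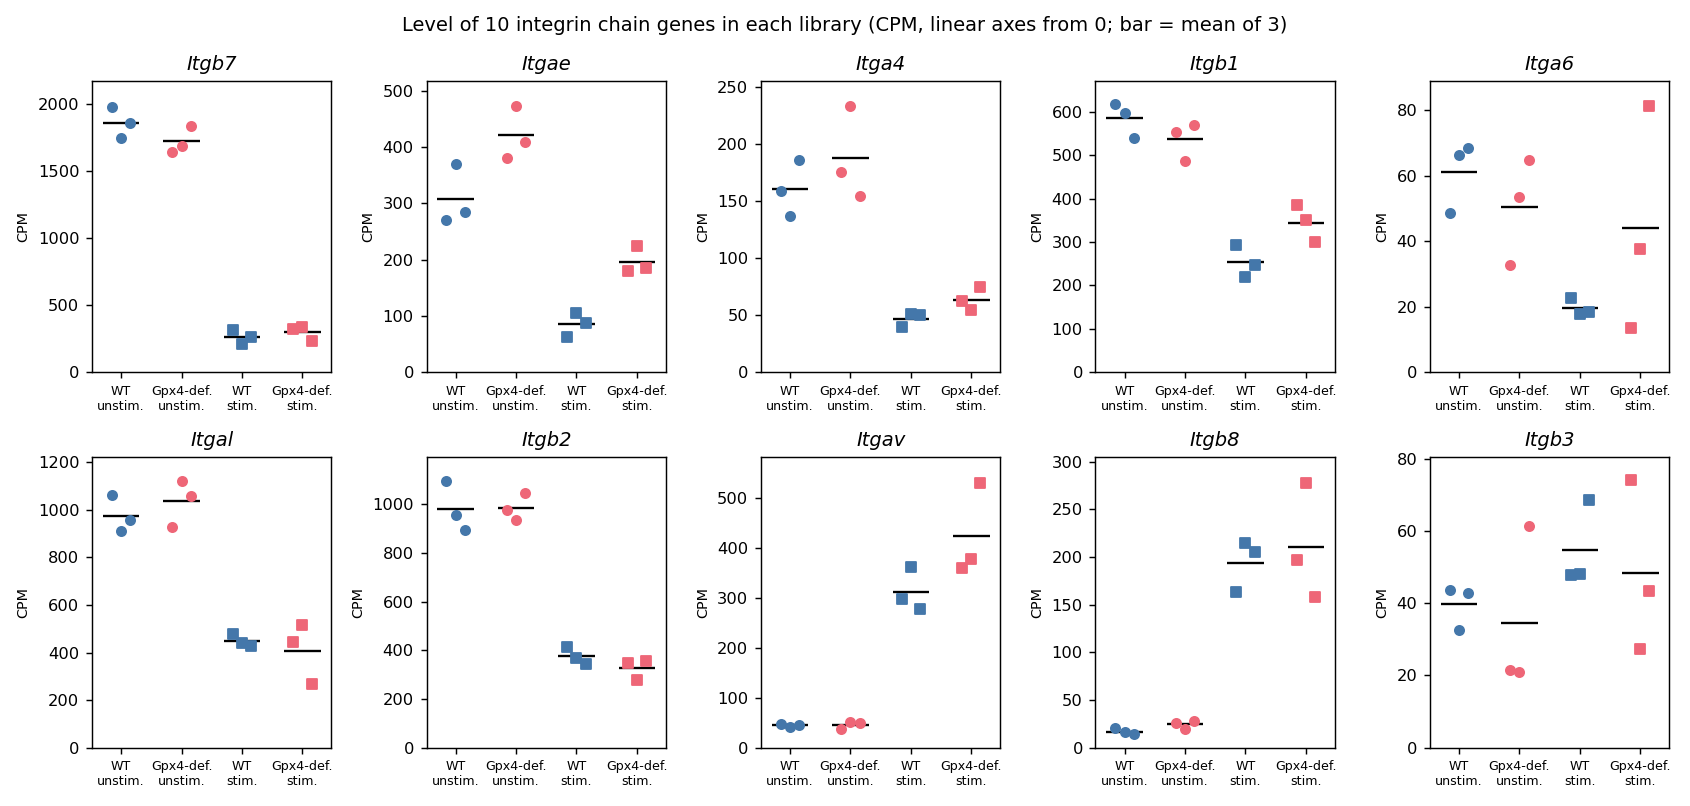
Level of each of the 10 integrin chain genes in CPM (vertical axes, linear from 0) in the 3 libraries of each group, with WT in blue, Gpx4-deficient in red, circles for unstimulated and squares for stimulated libraries, and a bar at the mean. Itgav and Itgb8 are higher and Itgb7, Itgae, Itga4, Itgb1, Itgal and Itgb2 lower in every stimulated library than in every unstimulated library of the same genotype, while stimulated Gpx4-deficient Itga6 spreads from 13.5 to 81.3 CPM.

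Itgav and Itgb8, the chains of the receptor that activates TGF-beta, had the highest rises among the 10. Itgav spans 83724397 to 83806916 of chromosome 2 (plus strand of GRCm38, as all gene positions here). In WT libraries it stood at 46.9, 40.9 and 45.9 CPM unstimulated and at 298.3, 362.3 and 277.9 CPM stimulated. In Gpx4-deficient libraries the values were 36.7, 52.2 and 50.1 CPM unstimulated and 360.5, 379.2 and 530.7 CPM stimulated. Every stimulated library was thus several times above every unstimulated one. Itgav rose with a log2 fold change of 2.81 (SE 0.20, edgeR adjusted p = 2.17e-06) in WT and 3.19 (SE 0.20, adjusted p = 9.35e-07) in Gpx4-deficient cells. A non-coding gene on the opposite strand, Gm13684, shares 634 exon bases with Itgav. Gm13684 held 4719.3 counts over the 12 libraries, while Itgav had at least 1043.8 in each. Since the strand setting of the counting is not given in the sources used here, reads of the shared stretch may be split between them.

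Itgb8, whose product confers on alpha V the capacity to activate latent TGF-beta, lies on chromosome 12 from 119158022 to 119238802 (minus strand). It started from the lowest per-length level of the 10 genes, at 20.5, 16.3 and 14.0 CPM in unstimulated WT and 25.8, 20.02 and 28.5 CPM in unstimulated Gpx4-deficient libraries. Stimulated libraries held 162.9, 214.3 and 205.0 CPM (WT) and 197.0, 277.6 and 158.0 CPM (Gpx4-deficient). The groups with and without stimulation were far apart, and the Gpx4-deficient libraries covered the range of the WT ones after stimulation. The rise was 3.52 (SE 0.26, edgeR adjusted p = 3.21e-06) on the log2 scale in WT and 3.09 (SE 0.26, adjusted p = 8.25e-06) in Gpx4-deficient cells. The difference between the responses of the genotypes was 0.38 for Itgav (edgeR adjusted p = 0.745) and -0.43 for Itgb8 (adjusted p = 0.79), neither of them called.

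Itgb3, another beta partner of alpha V, is best known on platelets as a partner of Itga2b. It lies on chromosome 11 from 104608000 to 104670476 (plus strand). Its level was 43.8, 32.5 and 42.9 CPM in unstimulated and 47.8, 48.1 and 68.5 CPM in stimulated WT libraries. In Gpx4-deficient libraries it was 21.4, 20.9 and 61.4 CPM unstimulated and 74.1, 27.4 and 43.3 CPM stimulated. The WT groups were separate by a small margin, and the Gpx4-deficient groups overlapped widely. Neither difference was called by edgeR (log2 fold change 0.46, adjusted p = 0.656 in WT, and 0.48, adjusted p = 0.547 in Gpx4-deficient cells). Platelet and megakaryocyte markers were low: the summed level of the 9 such genes with a row lay between 0 and 11.0 CPM in every library. Itga2b, which is among them, had 197 counts in stimulated Gpx4-deficient replicate 1 and 80 in unstimulated Gpx4-deficient replicate 3, where Itgb3 was highest in each group. It also had 125 counts in stimulated WT replicate 2, where Itgb3 was not the highest. The part of platelets in the Itgb3 level was not tested.

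Sequences before the RefSeq start are shown for the 2 chains that rose, Itgav and Itgb8, and for the 3 chains with an entry that fell, Itgb7, Itga4 and Itgb1, since each set moved together. Of the 10 genes, 5 (Itga4, Itgav, Itgb1, Itgb8 and Itgb7) have an entry in the RefSeq promoter table (GRCm38.p6), and the 250 bases before the RefSeq start were read. The gene positions given here come from GENCODE. In that annotation the Itgb8 window lies wholly inside the gene, and the Itgb7 window overlaps the first bases of its gene. In 5′ to 3′ direction of the gene, with capitals marking motif matches and lower case the rest, the windows are Itgav at chr2:83724147-83724396 (plus strand), Itgb8 at chr12:119238277-119238526 (minus strand), Itgb7 at chr15:102231936-102232185 (minus strand), Itga4 at chr2:79255176-79255425 (plus strand) and Itgb1 at chr8:128685404-128685653 (plus strand).
Itgav: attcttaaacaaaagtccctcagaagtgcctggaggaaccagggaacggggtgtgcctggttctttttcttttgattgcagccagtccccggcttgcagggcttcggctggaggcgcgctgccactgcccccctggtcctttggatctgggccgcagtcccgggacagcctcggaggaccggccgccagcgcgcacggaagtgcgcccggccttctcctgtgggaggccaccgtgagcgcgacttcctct
Itgb8: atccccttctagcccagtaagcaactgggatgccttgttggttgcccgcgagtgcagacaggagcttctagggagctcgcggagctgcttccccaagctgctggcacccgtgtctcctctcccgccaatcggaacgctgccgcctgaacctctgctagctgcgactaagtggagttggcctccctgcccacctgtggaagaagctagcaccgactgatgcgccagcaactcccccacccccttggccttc
Itgb7: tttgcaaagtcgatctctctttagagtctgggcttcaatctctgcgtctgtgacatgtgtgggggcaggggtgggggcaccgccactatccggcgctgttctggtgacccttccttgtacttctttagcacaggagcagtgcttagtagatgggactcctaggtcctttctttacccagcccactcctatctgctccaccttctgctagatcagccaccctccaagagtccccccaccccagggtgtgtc
Itga4: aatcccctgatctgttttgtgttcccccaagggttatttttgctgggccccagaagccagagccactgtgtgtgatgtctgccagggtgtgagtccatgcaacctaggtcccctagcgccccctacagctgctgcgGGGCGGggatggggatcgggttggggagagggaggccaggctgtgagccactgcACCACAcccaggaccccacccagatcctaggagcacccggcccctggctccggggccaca
Itgb1: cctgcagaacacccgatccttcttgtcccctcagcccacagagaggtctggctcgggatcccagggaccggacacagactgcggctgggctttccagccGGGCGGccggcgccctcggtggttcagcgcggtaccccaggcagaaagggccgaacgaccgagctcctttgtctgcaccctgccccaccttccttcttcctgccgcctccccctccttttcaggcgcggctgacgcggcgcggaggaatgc
Searched on both strands were AP-1 (TGANTCA), CRE (TGACGTCA), the NFAT core (GGAAAA), NF-kB, RUNX (TGTGGT), a SMAD palindrome (GTCTAGAC), EGR (GCGTGGGCG) and the GC box (GGGCGG). The reverse strand of NF-kB shares GGAAA with the NFAT core, and EGR shares GGGCG with the GC box. Over 32851 promoters, windows of this length held these letters in 6.75%, 1.55%, 20.4%, 1.41%, 14.0%, 0.167%, 0.536% and 32.7%, in that order. Itga4 held a RUNX match on the minus strand, 60 to 55 bases before the start, and a GC box 114 to 109 bases before it, and Itgb1 held a GC box 151 to 146 bases before its start. Itgav, Itgb8 and Itgb7 held none of these letter strings, which says only that they are not in these windows. Itgb1, which fell, had the most CG dinucleotides of the 5 windows at 21, followed by Itgav (18) and Itgb8 (12), which rose, and Itga4 (6) and Itgb7 (5), which fell, against a median of 6 over all windows. The GC content was 68.0% for Itgb1, 64.4% for Itgav, 64.0% for Itga4, 62.4% for Itgb8 and 56.0% for Itgb7, against a median of 52.4%. Neither measure separated the chains that rose from those that fell.

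Itgb7, the beta chain shared by the gut-homing and epithelium-binding receptors, had the largest fall of the 10 genes in both genotypes. It lies on chromosome 15 from 102215995 to 102231944 (minus strand). Its level was 1982, 1746 and 1860.2 CPM in unstimulated WT libraries and 316.5, 207.1 and 262.4 CPM in stimulated ones. In Gpx4-deficient libraries it was 1645, 1687 and 1839 CPM unstimulated and 321.3, 338.7 and 234.9 CPM stimulated. All stimulated libraries lay in a narrow band well under all unstimulated ones, and the genotypes overlapped in each state. Itgb7 changed by -2.83 (log2, SE 0.17, edgeR adjusted p = 5.56e-07), a 7.11-fold fall, in WT and by -2.53 (SE 0.17, adjusted p = 1.44e-06), a 5.78-fold fall, in Gpx4-deficient cells.

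Itgae, the alpha E chain that marks T cells retained in epithelium, fell with stimulation too, and it was the only one of the 10 genes that edgeR called between the genotypes. It lies on chromosome 11 from 73090583 to 73147446 (plus strand), and Haspin on the opposite strand lies inside it without sharing exon bases. Unstimulated libraries held 269.8, 369.5 and 285.4 CPM in WT and 381.3, 472.2 and 409.1 CPM in Gpx4-deficient cells. Stimulated libraries held 62.8, 104.7 and 86.3 CPM in WT and 179.8, 224.6 and 184.8 CPM in Gpx4-deficient cells. The Gpx4-deficient libraries were all above the WT ones in either state, narrowly without stimulation and by a clear gap with it. The fall with stimulation was -1.87 on the log2 scale (SE 0.20, edgeR adjusted p = 5.92e-05) in WT and -1.10 (SE 0.19, adjusted p = 0.0024) in Gpx4-deficient cells. After stimulation Itgae was 2.32-fold higher in Gpx4-deficient than in WT cells (log2 fold change 1.22, SE 0.19, edgeR adjusted p = 0.00832). This call is lost when only these 2 groups enter the fit (1.22, edgeR adjusted p = 0.165), and it held without any 1 of the 6 libraries, with adjusted p at most 0.0383. Without stimulation the difference of 0.45 (SE 0.19) had an edgeR adjusted p of 0.861, and the difference between the responses of the genotypes (0.77, SE 0.27) was not called either (adjusted p = 0.445).

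Itgae also marks some dendritic cells and CD8 T cells, so markers of both are given beside it. The summed level of the 13 dendritic cell and MHC class II markers was 321.9 to 469.1 CPM in stimulated WT and 637.0 to 897.2 CPM in stimulated Gpx4-deficient libraries. Of the 10 such markers tested, edgeR called 1 higher, Cd74 (log2 fold change 1.07, adjusted p = 0.0056), the invariant chain of MHC class II, and 0 lower. Over all genes, 1.03% were called higher and 1.25% lower. Cd74 had the most counts of these markers, 5315 to 7412 in stimulated WT and 14503 to 16524 in stimulated Gpx4-deficient libraries. Of the 10, 6 had a positive and 4 a negative log2 fold change. Batf3 was among the 4 (-4.37, edgeR adjusted p = 0.219, called lower by DESeq2). The class II chains were not called by edgeR: H2-Eb1 had a log2 fold change of 1.89 (adjusted p = 0.102, and called by DESeq2), H2-Aa of 0.72 (adjusted p = 0.346) and H2-Ab1 of 0.59 (adjusted p = 0.402). Clec9a, which with Xcr1 defines the dendritic cells that carry CD103, was at 0 in 11 of the 12 libraries, so its absence is not particular to any group. Xcr1 stood at 224, 120 and 1 counts in stimulated WT and at 1, 132 and 0 counts in stimulated Gpx4-deficient libraries. Markers of monocytes and macrophages summed to 44.9 to 89.9 CPM in stimulated WT and 135.7 to 164.8 CPM in stimulated Gpx4-deficient libraries. For B cell markers the sums were 18.1 to 27.9 CPM in stimulated WT and 6.64 to 67.2 CPM in stimulated Gpx4-deficient libraries. CD8 and NK cell markers summed to 48.8 to 60.2 and 37.7 to 40.2 CPM in stimulated WT and Gpx4-deficient libraries. Of the CD8 chains, Cd8a had 1 count in all 6 stimulated libraries together, while Cd8b1 had 204 to 439 counts in each (genotype log2 fold change 0.07, edgeR adjusted p = 0.974). The part of these cells in the Itgae result was not tested.

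Itga4, the alpha chain of the receptors for VCAM-1 and MAdCAM-1, lies on chromosome 2 from 79255426 to 79333123 (plus strand). Its level was 158.8, 136.5 and 185.4 CPM in unstimulated and 39.6, 51.1 and 49.8 CPM in stimulated WT libraries. In Gpx4-deficient libraries it was 175.2, 233.1 and 154.5 CPM unstimulated and 62.3, 53.9 and 74.4 CPM stimulated. The states were separate in both genotypes, and after stimulation each Gpx4-deficient library lay above each WT one by a small gap. Itga4 fell by 1.77 (log2, SE 0.21, edgeR adjusted p = 0.000141) in WT and by 1.56 (SE 0.21, adjusted p = 0.000378) in Gpx4-deficient cells, and the genotype difference after stimulation was not called (0.44, adjusted p = 0.283). Cerkl, on the opposite strand, shares 1124 exon bases with Itga4. It held 1132.8 counts over the 12 libraries, while Itga4 had at least 973.3 in each.

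Itgb1, the beta chain shared by most receptors for extracellular matrix, lies on chromosome 8 from 128685654 to 128733200 (plus strand). It stood at 619.1, 597.3 and 538.9 CPM in unstimulated and 292.3, 219.4 and 247.4 CPM in stimulated WT libraries. Gpx4-deficient libraries had 554.2, 485.8 and 570.7 CPM unstimulated and 384.8, 350.0 and 299.2 CPM stimulated. The WT and Gpx4-deficient ranges overlapped before stimulation and were just separate after it, with the Gpx4-deficient libraries above. Itgb1 fell by 1.21 (log2, SE 0.13, edgeR adjusted p = 8.56e-05) in WT and by 0.64 (SE 0.13, adjusted p = 0.00687) in Gpx4-deficient cells. The difference between these responses, 0.57 (SE 0.19), had an edgeR adjusted p of 0.42 and a DESeq2 adjusted p of 0.0446, and the genotype difference after stimulation, 0.45 (SE 0.13), had adjusted p of 0.113 and 0.00452 by the same tools. Without the stimulated Gpx4-deficient replicate 3 and the unstimulated replicate 1, an alternative chosen after seeing the data, the genotype difference was called by edgeR (0.58, adjusted p = 0.0469) and the fall in Gpx4-deficient cells was not (-0.45, adjusted p = 0.0666).

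Itga6, an alpha partner of beta 1 that binds laminin, lies on chromosome 2 from 71745616 to 71858416 (plus strand). WT libraries held 48.5, 66.3 and 68.5 CPM unstimulated and 22.5, 17.7 and 18.2 CPM stimulated. Gpx4-deficient libraries held 32.6, 53.6 and 64.7 CPM unstimulated and 13.5, 37.5 and 81.3 CPM stimulated. The WT states were separate, while the stimulated Gpx4-deficient libraries spanned the lowest and the highest value of all 12. The WT difference of -1.65 (log2, SE 0.52) was not called by edgeR with all 12 libraries (adjusted p = 0.0632). It was called by DESeq2 (adjusted p = 0.00909) and by edgeR with only the 2 WT groups in the fit (adjusted p = 0.00118). The highest value of Itga6 was in the replicate with the highest mitochondrial share.

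Itgal and Itgb2, the chains of LFA-1, both fell with stimulation. Itgal lies on chromosome 7 from 127296260 to 127335138 and Itgb2 on chromosome 10 from 77530252 to 77565708 (both plus strand). Itgal stood at 1060.2, 911.8 and 954.9 CPM in unstimulated and 476.5, 441.5 and 426.5 CPM in stimulated WT libraries, and at 926.4, 1122 and 1059.6 CPM and then 442.5, 514.3 and 267.3 CPM in Gpx4-deficient ones. Itgb2 stood at 1096, 956.1 and 891.6 CPM in unstimulated and 413.4, 368.5 and 343.5 CPM in stimulated WT libraries, and at 976.0, 935.1 and 1043 CPM and then 348.6, 275.9 and 356.4 CPM in Gpx4-deficient ones. Every stimulated library was under every unstimulated one for both chains, and the lowest Itgal value belonged to the Gpx4-deficient replicate 3 that stood apart. Itgal changed by -1.12 (log2, SE 0.19, edgeR adjusted p = 0.00197) in WT and -1.34 (SE 0.19, adjusted p = 0.000579) in Gpx4-deficient cells. Itgb2 changed by -1.39 (SE 0.12, edgeR adjusted p = 1.53e-05) and -1.59 (SE 0.13, adjusted p = 5.7e-06). Between the genotypes after stimulation, neither Itgal (-0.14, adjusted p = 0.78) nor Itgb2 (-0.20, adjusted p = 0.423) was called by edgeR.

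**Figure D2:**
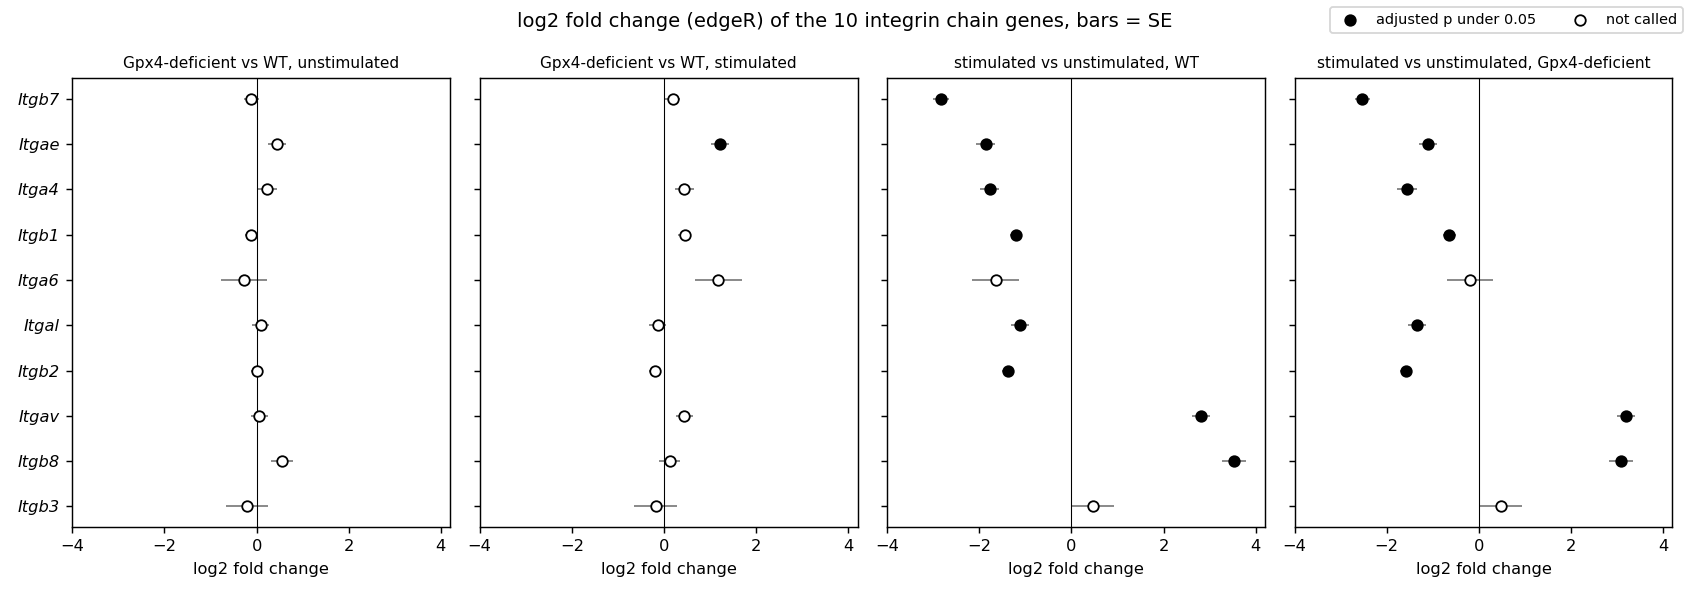
Log2 fold change of each of the 10 integrin chain genes (horizontal axis) in the 4 comparisons of 2 groups, with bars for the standard error and filled points for an edgeR adjusted p under 0.05. Filled points number 0 and 1 (Itgae) in the genotype comparisons, and 8 in each stimulation comparison.

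Between the genotypes, most of the 10 genes had no call. Without stimulation edgeR called 0 of the 10 between the genotypes, where 0.0674% of all genes were called. Unadjusted p was under 0.05 for 2 of them, Itgae (0.45) and Itgb8 (0.55), against 5.80% of all genes, and DESeq2 and limma-voom also called 0 (1.46% and 0.142% of all genes). Libraries of the genotypes did not overlap for 1 gene, Itgae (18.3% of all genes). With stimulation edgeR called 1 higher, Itgae, and 0 lower, where 1.03% and 1.25% of all genes were called higher and lower. Here 4 of the 10 (Itgae, Itgb1, Itgav and Itga6) had an unadjusted p under 0.05, all higher, against 18.3% of all genes. DESeq2 called 2 of the 10 and limma-voom 1, where they called 13.1% and 3.19% of all genes, so the DESeq2 count is near the share over all genes. Libraries did not overlap for 3 genes, Itgae, Itga4 and Itgb1, each higher in Gpx4-deficient cells (20.1% of all genes). The median log2 difference of the 10 genes was 0.03 without and 0.31 with stimulation, against 0.01 and 0 over all genes tested. For the interaction, the stimulation response of Gpx4-deficient minus that of WT cells, edgeR and limma-voom called 0 of the 10 and DESeq2 called 1 (Itgb1), where edgeR called 0.202%, limma-voom 0% and DESeq2 3.47% of all genes. Itgae and Itgb1 had an unadjusted p under 0.05 in that test (0.0157 and 0.0107; 8.75% of all genes), and the median over the 10 genes was 0.26 against -0.01 over all genes.

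Levels of different genes were compared per length, as RPKM (CPM divided by the annotated exon length in kilobases). In unstimulated WT cells Itgb7 was highest at 672.4 ± 42.5 RPKM (SD, n = 3), followed by Itgb2 (321.5 ± 34.3 RPKM). Itgal (148.5 ± 11.6 RPKM) and Itgb1 (143.4 ± 10.2 RPKM) came next and overlapped each other, and Itgae (67.3 ± 11.7 RPKM) and Itga4 (11.5 ± 1.75 RPKM) followed. The beta 7 chain exceeded the alpha chains it can pair with, Itgae and Itga4, by a wide margin on this scale. At the low end Itga6 (6.77 ± 1.22 RPKM) and Itgb3 (6.73 ± 1.06 RPKM) overlapped, above Itgav (4.15 ± 0.299 RPKM) and Itgb8 (1.53 ± 0.298 RPKM). The chains of the TGF-beta-activating receptor were thus the lowest of the 10. In unstimulated Gpx4-deficient cells the first 6 places were taken in the same order, from Itgb7 at 622.3 ± 36.7 RPKM to Itga4 at 13.4 ± 2.92 RPKM. Itgb3 (5.86 ± 3.94 RPKM), Itga6 (5.58 ± 1.81 RPKM) and Itgav (4.31 ± 0.781 RPKM) then overlapped, and Itgb8 was last at 2.24 ± 0.391 RPKM.

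After stimulation the levels lay closer together. In stimulated WT cells Itgb2 (122.9 ± 11.6 RPKM) and Itgb7 (94.6 ± 19.8 RPKM) overlapped at the top, above Itgal (68.2 ± 3.91 RPKM) and Itgb1 (62.0 ± 9.01 RPKM), which overlapped too. Itgav moved to the fifth place at 29.1 ± 4.10 RPKM, and Itgae (18.5 ± 4.58 RPKM) and Itgb8 (17.5 ± 2.47 RPKM) overlapped under it. In this group the alpha V and beta 8 chains stood level with or above Itgae, far from their place at the bottom before stimulation. Itgb3 (9.29 ± 2.01 RPKM), Itga4 (3.35 ± 0.453 RPKM) and Itga6 (2.16 ± 0.292 RPKM) closed the order. In stimulated Gpx4-deficient cells each gene from Itgb7 (107.7 ± 20.1 RPKM) through Itgb2 (107.1 ± 14.5 RPKM), Itgb1 (84.5 ± 10.5 RPKM), Itgal (62.1 ± 19.3 RPKM) and Itgae (42.9 ± 5.37 RPKM) to Itgav (39.4 ± 8.69 RPKM) overlapped the next. No chain therefore stood out at the top of the order in that group. Itgb8 (19.1 ± 5.51 RPKM) stood under them. Lower still, Itgb3 (8.18 ± 4.02 RPKM), Itga6 (4.89 ± 3.81 RPKM) and Itga4 (4.55 ± 0.738 RPKM) were not separate from each other. With the length of the longest transcript in place of all annotated exons, 0 of the 10 genes changed place in unstimulated WT, 3 in unstimulated Gpx4-deficient, 2 in stimulated WT and 4 in stimulated Gpx4-deficient cells.

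As a share of the summed per-length level of the 10 genes, Itgb7 took 48.6 ± 1.55% (SD, n = 3) in unstimulated WT and 45.8 ± 0.482% in unstimulated Gpx4-deficient cells, and 22.0 ± 3.23% and 22.3 ± 2.75% after stimulation. Itgav and Itgb8 together went from 0.410 ± 0.014% and 0.482 ± 0.034% without stimulation to 11.0 ± 1.96% (WT) and 12.3 ± 2.09% (Gpx4-deficient) with it. The LFA-1 chains together took 33.9 ± 1.27% and 35.4 ± 0.228% unstimulated, and 44.7 ± 1.67% (WT) and 35.3 ± 1.27% (Gpx4-deficient) stimulated. The first share was lower and the second higher in every stimulated library than in any unstimulated one. The share of the LFA-1 chains lay between 42.9% and 46.3% in the stimulated WT libraries and between 33.8% and 36.2% in the stimulated Gpx4-deficient ones, without overlap. Itgae took 4.89 ± 1.04%, 6.78 ± 0.793%, 4.38 ± 1.34% and 8.94 ± 1.02% in unstimulated WT, unstimulated Gpx4-deficient, stimulated WT and stimulated Gpx4-deficient cells. A share of a fixed sum falls when another gene rises, so these values describe proportions and not levels, and they were not tested.

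**Figure D3:**
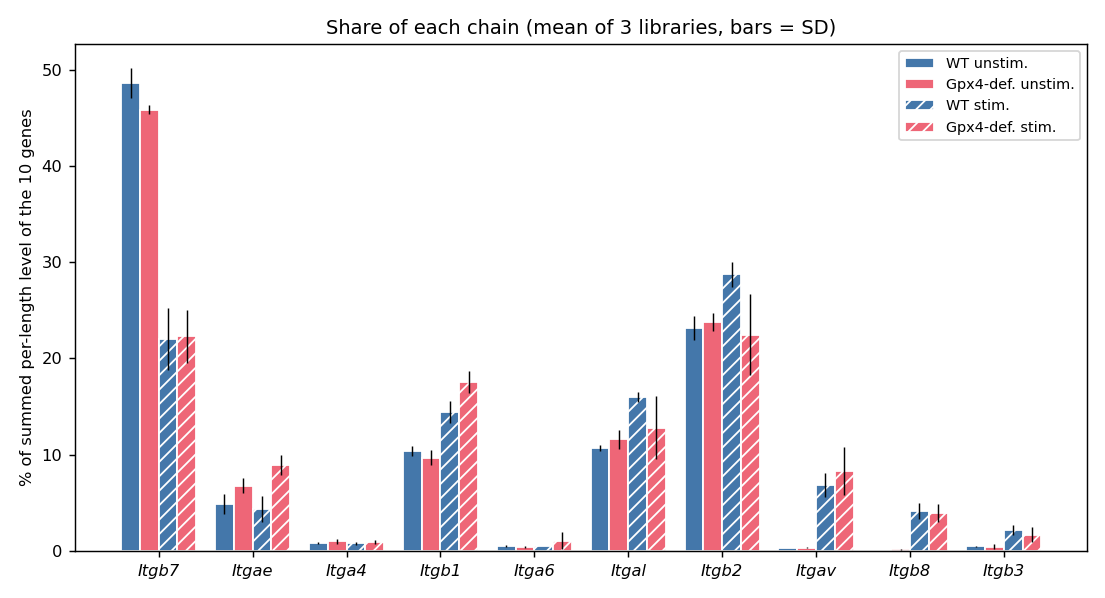
Share of each chain in the summed per-length level of the 10 genes (percent, bars from 0), as the mean of 3 libraries per group with SD. Itgb7 takes 48.6% and 45.8% in unstimulated and 22.0% and 22.3% in stimulated WT and Gpx4-deficient cells, and Itgav and Itgb8 are near 0 in both unstimulated groups.

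The ratio of 2 chains within a library does not depend on scaling between libraries, and 5 ratios of per-length levels were tested for genotype and for stimulation, 10 tests in all. Each was a two-sided exact permutation test of the log2 ratio with labels exchanged within the other factor (400 arrangements, smallest possible p = 0.005). Itgae relative to Itgb7 was 0.0823, 0.128 and 0.0928 in unstimulated WT and 0.140, 0.169 and 0.135 in unstimulated Gpx4-deficient libraries. After stimulation it was 0.120, 0.306 and 0.199 in WT and 0.338, 0.401 and 0.476 in Gpx4-deficient libraries. The Gpx4-deficient libraries were above the WT ones in both states, with no overlap. The log2 ratio was higher in Gpx4-deficient cells by 0.81 (0.57 without and 1.049 with stimulation; exact permutation p = 0.005, the smallest possible, adjusted p = 0.0167). Stimulation raised it by 1.21 (0.97 in WT and 1.45 in Gpx4-deficient cells; exact permutation p = 0.01, adjusted p = 0.02), as Itgb7 fell further than Itgae.

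Itga4 relative to Itgb7 rose with stimulation by 1.04 on the log2 scale (exact permutation adjusted p = 0.0167), from a mean ratio of 0.0170 to 0.0371 in WT and from 0.0217 to 0.0443 in Gpx4-deficient cells. Itga4 relative to Itgb1 fell by 0.73 (exact permutation adjusted p = 0.02), from 0.0807 to 0.0554 and from 0.104 to 0.0550. This second call is lost without the unstimulated Gpx4-deficient replicate 2, whose Itga4 was the highest of all libraries (-0.61, exact permutation adjusted p = 0.06). Itgb7 relative to Itgb1, the choice of beta chain open to Itga4, fell by 1.77 (exact permutation adjusted p = 0.0167), from 4.70 ± 0.389 to 1.52 ± 0.110 in WT and from 4.75 ± 0.371 to 1.27 ± 0.139 in Gpx4-deficient cells (SD, n = 3). For these 3 ratios the genotype difference was not called: 0.29 (exact permutation adjusted p = 0.3286), 0.17 (0.5222) and -0.12 (0.3083).

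Itgal relative to Itgb2 differed little. The ratio was 0.463 ± 0.0298 in unstimulated and 0.556 ± 0.0207 in stimulated WT libraries (SD, n = 3), and 0.490 ± 0.0602 and 0.601 ± 0.259 in Gpx4-deficient ones. The log2 difference was 0.05 for genotype and 0.24 for stimulation (exact permutation adjusted p = 0.8 and 0.3313). Stimulated Gpx4-deficient libraries spread from 0.349 (replicate 3) to 0.866 (replicate 2), wider than all other libraries together. Without replicate 3 of that group the stimulation difference was 0.41 and called (exact permutation adjusted p = 0.02).

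**Figure D4:**
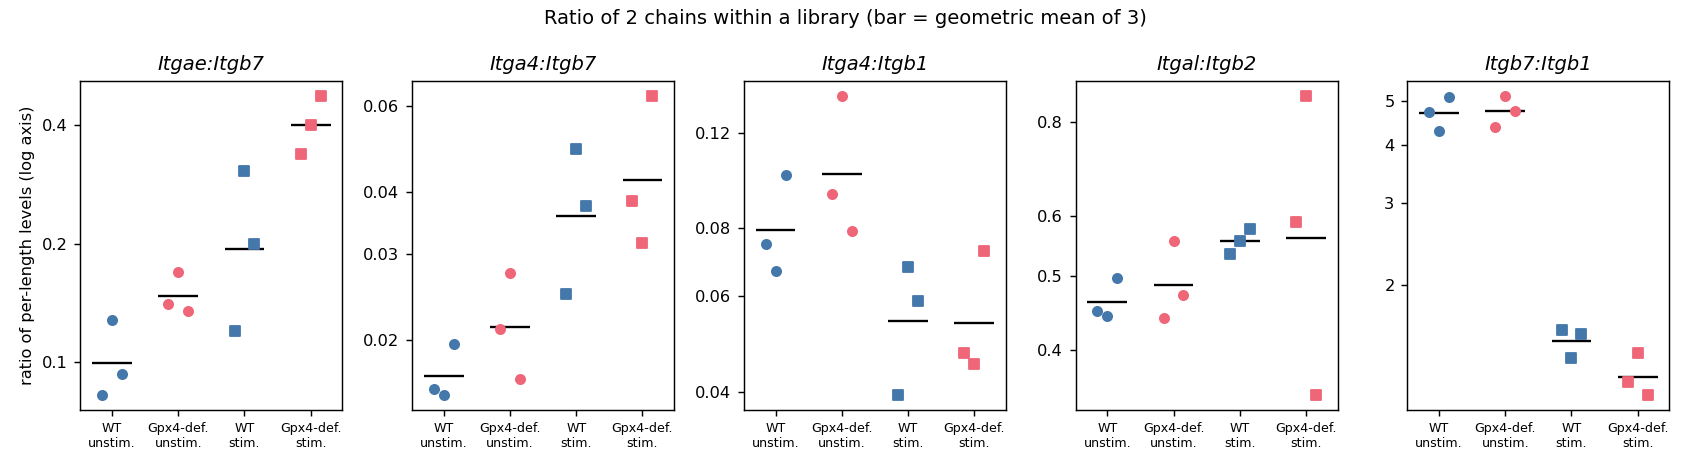
Ratio of the per-length levels of 2 chains in each library (vertical axes are log scales), with a bar at the geometric mean of 3. Itgae relative to Itgb7 is higher in all Gpx4-deficient than in all WT libraries of the same state, and Itgb7 relative to Itgb1 falls from a mean of 4.70 to 1.52 in WT cells.

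Genes whose profile over the 12 libraries was most like that of each called chain were taken as the 3 with the smallest root mean square distance between centred log2 CPM profiles. For Itgb1 the nearest were Ypel3 (0.08 log2 units), Fech (0.13) and Commd4 (0.15). Itgb2 had Slc9a3r1 (0.12), Dedd2 (0.14) and Fermt3 (0.16), and Itgal had Tln1 (0.14), Septin9 (0.17) and Zgpat (0.17). Fermt3 and Tln1 encode kindlin-3 and talin, which bind integrin beta tails. Itga4 had Ly6e (0.19), Ablim1 (0.19) and Ubash3a (0.21), Itgb7 had Sh2d3c (0.25), Arhgap45 (0.27) and Rac2 (0.27), and Itgae had Izumo4 (0.25), Ighm (0.29) and Lrch4 (0.30). Itgav had Nabp1 (0.28), Ccr8 (0.29) and Iigp1 (0.30), and Itgb8 had Cars (0.34), Egr2 (0.35) and Ccr8 (0.37), so that the chemokine receptor gene Ccr8 was near both. The SD of the chains themselves over the 12 libraries ran from 0.53 (Itgb1) to 1.75 (Itgb8) log2 units. All 24 places were filled by the same genes with relative log expression (RLE) scaling by edgeR in place of TMM. A change of scaling shifts both genes of a pair almost equally in a library, so this alternative could hardly change the distances and is no check of them.

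Of 16 other integrin chains, 14 had a row and 11 were tested, and edgeR called 1 lower with stimulation in each genotype. This is near the share over all genes (5.41% in WT and 7.83% in Gpx4-deficient cells). Itga5, the alpha chain of the classical fibronectin receptor, stood at 16.0 to 21.2 CPM in group means, and Itga3 at 4.61 to 27.4 CPM. Group means of Itga7 were 2.52 to 10.4 CPM, and those of Itga1, Itga2b, Itga9, Itga10, Itgad, Itgam and Itgax were all under 6 CPM. The collagen-binding chain Itga1 was called lower with stimulation in WT cells (edgeR adjusted p = 0.0483), where 43, 178 and 123 counts fell to 0 in all 3 libraries. Unstimulated Gpx4-deficient libraries held only 0, 1 and 16 counts of it. Itga2 was called lower in Gpx4-deficient cells (edgeR adjusted p = 0.0221), from 480, 301 and 100 counts to 1, 0 and 0. In WT cells it went from 159, 191 and 147 counts to 47, 0 and 0, called by limma-voom and not by edgeR (adjusted p = 0.309). Itgam and Itgax, the alpha chains that pair with Itgb2 on myeloid cells, were at 0 in many libraries.

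The list of inside-out activation holds genes that switch integrins on and also some that oppose this, among them Sipa1, Rasa3, Rap1gap2 and Cytip. Of its 26 tested genes, edgeR called 2 higher and 9 lower with stimulation in WT (6.12% and 5.41% of all genes) and 2 higher and 9 lower in Gpx4-deficient cells (7.45% and 7.83%), so that the count of higher genes is near the share over all genes. The median log2 fold change was -0.72 and -0.28. Rac2, a GTPase of the actin skeleton, fell from 2884 ± 163 to 582.2 ± 65.3 CPM in WT (-2.31, edgeR adjusted p = 1.1e-07) and by 2.30 in Gpx4-deficient cells (adjusted p = 1.33e-07). Skap1, an adaptor of the ADAP module, changed by -2.36 and -1.83, Prkd2 by -1.91 and -2.03, and Fermt3 by -1.31 and -1.40 (edgeR adjusted p at most 0.000104). Rasgrp2, an exchange factor for Rap1, had the largest fall, from 104.1 ± 4.00 to 6.33 ± 3.19 CPM in WT cells (-4.04, edgeR adjusted p = 0.000186). Sipa1, whose product inactivates Rap1, was among the 9 that fell (-2.10 and -2.28, edgeR adjusted p = 0.00155 and 0.000904). Cytip, which restrains LFA-1 adhesion through cytohesin-1, rose by 0.91 and 1.02 (adjusted p = 0.00047 and 0.000225). Between the genotypes after stimulation edgeR called 1 of the 26, Fyb (ADAP), higher by 0.81 in Gpx4-deficient cells (adjusted p = 0.0332), where 1.03% of all genes were called higher.

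Of 11 tested integrin inhibitors and turnover genes, edgeR called 4 lower with stimulation in WT (Acap1 -1.81, Flna -1.47, Sharpin -0.93 and Dok2) and 3 lower in Gpx4-deficient cells, where Sharpin missed the threshold (adjusted p = 0.07). Over all genes 5.41% and 7.83% were called lower. Flna encodes filamin A, which competes with talin for beta tails. Nisch, the gene of an integrin-binding protein, was the 1 of the 11 that edgeR called between the genotypes after stimulation (higher by 0.70, adjusted p = 0.0294). In that comparison 1.03% of all genes were called higher and 1.25% lower. Of 26 adhesion signalling genes, 9 were lower with stimulation in each genotype and 0 were higher by edgeR, against the same 5.41% and 7.83% lower and 6.12% and 7.45% higher over all genes. The lowest adjusted p in WT cells belonged to Coro1a (-1.73), Lck (-1.25), Arhgef6 (-1.41) and Ptk2b (-1.26). After stimulation, edgeR called 1 of the 26 higher and 2 lower in Gpx4-deficient than in WT cells (1.03% and 1.25% of all genes). Ptk2b, a focal adhesion kinase family member, was higher (0.85, edgeR adjusted p = 0.00797), and the T cell receptor kinases Lck and Zap70 were lower (-0.63 each, adjusted p = 0.0238 and 0.036).

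The genes that make, hold and read latent TGF-beta, the ligand of the alpha V beta 8 receptor, were counted beside Itgav and Itgb8. Of 20 tested, edgeR called 5 higher and 1 lower with stimulation in each genotype, against 6.12% higher and 5.41% lower over all genes in WT and 7.45% and 7.83% in Gpx4-deficient cells. Lrrc32 (GARP), which tethers latent TGF-beta to the Treg cell surface, rose from 482.1 ± 40.3 to 2326 ± 148 CPM in WT (2.27, edgeR adjusted p = 7.12e-08) and from 473.4 ± 47.1 to 1857 ± 123 CPM in Gpx4-deficient cells (1.97, adjusted p = 1.8e-07). Furin, the protease that cuts the TGF-beta precursor, rose by 3.79 and 2.84 (edgeR adjusted p = 2.98e-05 and 0.000223). The transcriptional repressors of TGF-beta signalling Tgif1 (1.74 and 1.92) and Skil (1.29 and 1.10) rose, and the receptor genes went apart, with Tgfbr1 higher (0.82 and 0.87) and Tgfbr2 lower (-0.90 and -1.06). Tgfb1 itself stood at 16.1 ± 2.51 and 16.9 ± 4.26 CPM in unstimulated and stimulated WT cells and at 23.0 ± 7.48 and 29.7 ± 13.05 CPM in Gpx4-deficient cells (edgeR adjusted p = 0.963 and 0.643). Between the genotypes after stimulation edgeR called 0 of the 20. Of these, 7 had an unadjusted p under 0.05 (18.3% of all genes). DESeq2 called 3, all higher (Runx3, Smad4 and Smurf1), which is near its share of 13.1% over all genes, and limma-voom called 2, both lower (Furin and Lrrc32; 3.19% of all genes). Lrrc32 is also among the 13 Treg and T cell identity markers. Of these 13, edgeR called 1 higher between the stimulated genotypes, Ikzf2 (0.61, adjusted p = 0.0203), and 0 lower, where 1.03% and 1.25% of all genes were called. Unadjusted p was under 0.05 for 9 of the 13 (18.3% of all genes), and 10 had a positive and 3 a negative log2 fold change. DESeq2 called 3 higher and 2 lower, and limma-voom 1 higher and 3 lower.

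Among 13 tested integrin ligands, edgeR called 1 higher with stimulation in each genotype, near the share over all genes (6.12% in WT and 7.45% in Gpx4-deficient cells). The gene was Icam1, whose product binds LFA-1, with log2 fold changes of 1.34 in WT (edgeR adjusted p = 0.00205) and 0.75 in Gpx4-deficient cells (adjusted p = 0.0442), and limma-voom did not call the latter. Its level went from 160.3 ± 2.45 to 404.8 ± 33.4 CPM in WT and from 138.8 ± 22.4 to 232.7 ± 83.6 CPM in Gpx4-deficient cells, where the states overlapped, with 147.5 CPM in stimulated replicate 1 and 152.3 CPM in unstimulated replicate 2. Between the stimulated genotypes the difference of -0.80 was not called by edgeR (adjusted p = 0.0976) and was called by DESeq2 and limma-voom. As a check of the stimulation label, 13 of 16 early T cell receptor response genes were called higher by edgeR in each genotype, against 6.12% and 7.45% of all genes.

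**Figure D5:**
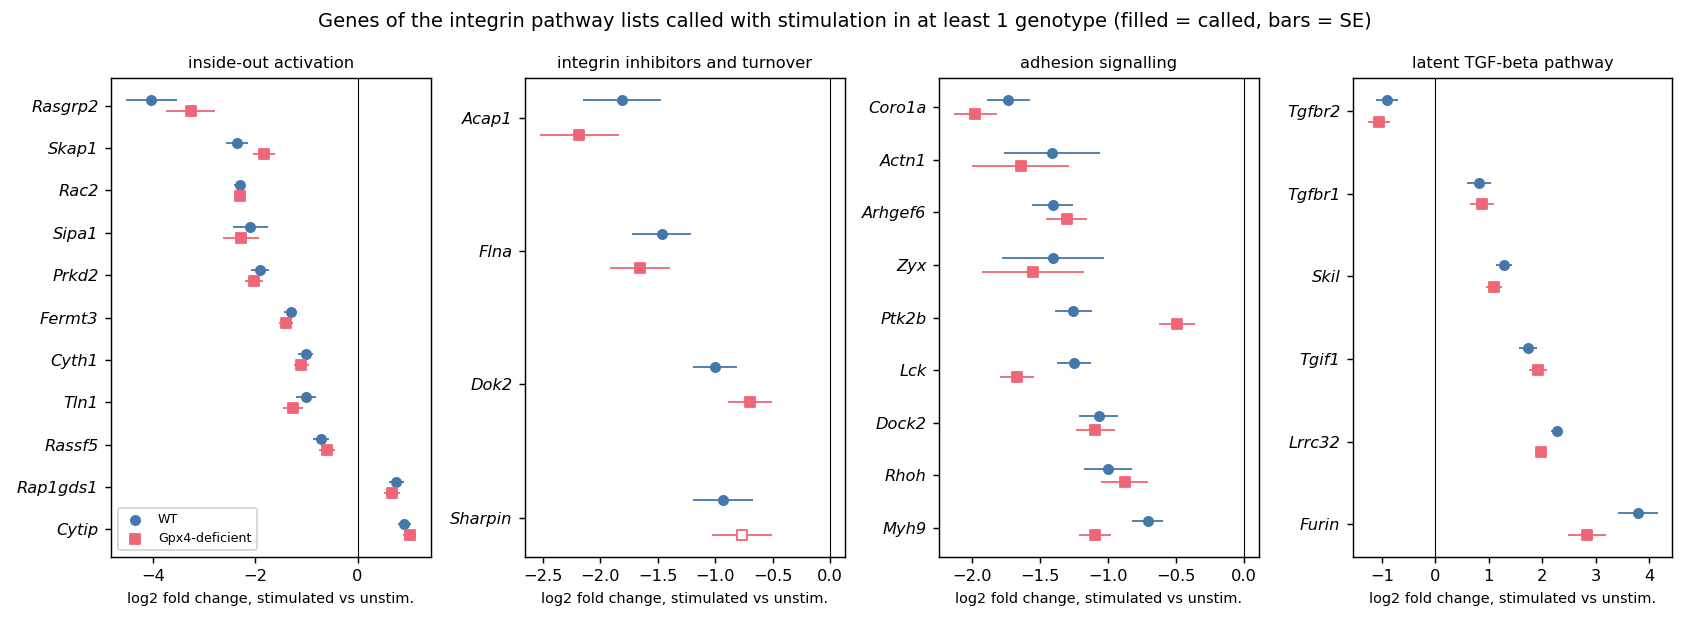
Log2 fold change with stimulation (horizontal axes) of the listed pathway genes that edgeR called in at least 1 genotype, in WT (blue circles) and Gpx4-deficient cells (red squares), with bars for the standard error and filled points for called genes. Of the inside-out activation genes shown, 9 lie on the lower side and 2 on the higher side in both genotypes, and Sharpin is open in Gpx4-deficient cells.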

How the data were processed

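RNA-seq libraries of mouse Treg cells were made with a stranded mRNA kit, per the labels' protocols. The authors deposited expected counts per gene made with RSEM, on GRCm38 according to the submitters' processing notes. Aligner, software versions and strand setting: not given in the sources used here. Expected counts were rounded and tested with edgeR 4.0.16 in R 4.3.3 (TMM, filterByExpr, robust quasi-likelihood F test). The 12 libraries shared a model with 4 group means (8 residual degrees of freedom), and Benjamini-Hochberg adjustment covered all 14827 genes. SEs come from the F statistic. CPM use TMM library sizes, and RPKM use exon lengths of the GENCODE annotation of GRCm38. Chain ratios were tested in Python 3.11.15. DESeq2 1.42.0, limma 3.58.1 (voom) and other filters, scalings and subsets of libraries were alternatives. The scripts were tested on simulated data.

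The 10 genes and the lists were chosen with earlier results of these data known. The naming rule took all 10 genes, the other integrin chains tested, and up to 4 called genes per list and comparison by adjusted p. Rasgrp2, Cytip, Tgfbr1, Tgfbr2, Clec9a, Xcr1, Batf3, Cd8a, Cd8b1, H2-Eb1, H2-Aa, H2-Ab1, Sipa1, Rasa3, Rap1gap2, Smad4 and Smurf1 were named outside it, after their values were seen. Precision is limited by the total count per library (24629230 to 31879267) and by the 3 libraries per group.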

Additional observations from a re-analysis of the deposited data

Results flagged for a closer look

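None of the 10 integrin chain genes was called in the test of the difference between the stimulation responses of the genotypes by edgeR, and groups of 3 libraries were not searched for outlying samples. Among the early T cell receptor response genes, which served as the check of stimulation, the response differed between the genotypes by the interaction test for Nr4a1 and Egr1, genes of transcription factors induced within hours of receptor engagement. The response of Nr4a1 was lower in Gpx4-deficient than in WT cells by -1.28 on the log2 scale (SE 0.17, edgeR adjusted p = 0.0204), with levels of 393.7 ± 33.2 and 3174 ± 27.5 CPM in unstimulated and stimulated WT and 477.6 ± 77.0 and 1583 ± 205 CPM in Gpx4-deficient cells. For Egr1 the difference was -1.43 (SE 0.23, edgeR adjusted p = 0.0359), with 294.0 ± 16.2 and 1198 ± 98.7 CPM in WT and 529.9 ± 131 and 800.1 ± 82.3 CPM in Gpx4-deficient cells.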

How the results depend on the processing

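The 8 stimulation calls of each genotype were made by edgeR, DESeq2 and limma-voom, and the count stayed at 8 without any 1 library. In WT cells Itga6 was added, for 9 calls, by DESeq2 and by edgeR with no filter or with only the 2 groups in the fit. The same held without stimulated Gpx4-deficient replicate 3 and unstimulated Gpx4-deficient replicate 1. Between the genotypes with stimulation, the count of the 10 genes called was 1 by edgeR, 2 by DESeq2, 0 with only the 2 groups in the fit, 1 to 2 when each library was left out in turn (2 without stimulated Gpx4-deficient replicate 1, which added Itga6 at 1.65, adjusted p = 0.0316), and 2 without stimulated Gpx4-deficient replicate 3 and unstimulated replicate 1. For the interaction it was 1 by DESeq2. The cause of these changes was not tested. With the replicate number as a replicate block the counts of called genes among the 10 were 0, 1, 8, 8 and 0 in the 5 comparisons, no call of the 10 changed, and over all genes 171 in place of 337 were called between the stimulated genotypes. Same-numbered libraries of different groups had correlations of deviations between -0.0618 and 0.0297. Between the unstimulated and stimulated libraries of a genotype they were 0.0076 to 0.0297 in WT and -0.0224 to 0.0277 in Gpx4-deficient cells. With 3 libraries a group, such values cannot decide whether the numbers pair the samples. Over all genes, DESeq2 called 218, 1876, 2896, 3948 and 520 genes in the 5 comparisons against 10, 337, 1709, 2266 and 30 by edgeR, and fits of only 2 groups called 7, 22, 3499 and 1022. The share of higher among genes called between the stimulated genotypes was 45.1% by edgeR and 33.6% by limma-voom, which moved the median of all genes by -0.21 in that comparison and by -0.26 for stimulation in Gpx4-deficient cells.

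When each library was left out in turn, the log2 ratio of Itga4 to Itgb1 with stimulation ran from -0.84 to -0.61, and that of Itgal to Itgb2 from -0.11 to 0.22 for genotype and from 0.080 to 0.41 for stimulation. The sign of uncalled fold changes also turned. Itgb2 between the unstimulated genotypes was -0.018 with library totals only and -0.021 to 0.11 over the libraries left out. Over the same omissions, in that comparison, Itgb3 ran from -0.87 to 0.071 and Itgav from -0.021 to 0.22. Between the stimulated genotypes Itgb3 ran from -0.59 to 0.14, Itgb8 from -0.10 to 0.29 and Itgal from -0.30 to 0.092. Itga6 with stimulation in Gpx4-deficient cells ran from -0.98 to 0.25, and the interaction from -0.41 to 0.73 for Itgb3 and from -0.41 to 0.0063 for Itgal. Without stimulated Gpx4-deficient replicate 3 and unstimulated Gpx4-deficient replicate 1, Itgb3 was 0.038 between the unstimulated genotypes and -0.12 in the interaction. Without the same 2 libraries, Itgal was 0.13 between the stimulated genotypes. Of the other fold changes under all alternatives, 868 kept their direction and side of the threshold. A further 22 turned sign without a call, 8 passed the threshold newly and 2 lost it. Itgae lost it between the genotypes with only the 2 stimulated groups in the fit. Itgb1 lost it for stimulation in Gpx4-deficient cells without stimulated replicate 3 and unstimulated replicate 1 of that genotype. Those 2 libraries were chosen after seeing the data.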
